A study of Homo sapiens with 4 samples.

Results

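HELZ2, ZNFX1, RNF213, TRANK1, EIF2AK2 and ADAR were measured in HT-29 cells, a line from a human colorectal adenocarcinoma, carrying either a control vector or Myc-TRIM40. They are 6 of the 27685 genes in the transcript tables and hold 15 of the 63714 RefSeq transcripts. The genes were chosen by name with the Myc-TRIM40 against control values of these same 4 libraries known, so that their levels, ratios and fitted changes are a description and carry no test. The control was HT-29 cells of the WT genotype that carried the control vector, without further treatment. The other group expressed TRIM40, a RING-type E3 ubiquitin ligase, with a Myc tag from a retroviral vector. Each of 2 experiments gave 1 control and 1 Myc-TRIM40 library, and whether the cells were a clone or a pool was not given in the sources used here. Libraries held between 60954602 and 67424698 reads, and the 6 genes took from 0.0290% to 0.196% of them. TRIM40 had 0 reads in both controls, 272646 in Myc-TRIM40 of experiment 1 and 110665 in Myc-TRIM40 of experiment 2. The transgene was thus present only in the libraries labelled with it, at unequal levels, and a count of 0 allows up to 3 reads in a library by counting error. All 10 markers of colonic epithelium were at 1 FPKM or more in every library. The marker lists of other cell types summed to between 8.43 and 14.2 FPKM for leukocytes, in which 3 of 5 markers, PTPRC and CD3E among them, stayed under 0.1 FPKM and the other 2 were at 1 FPKM or more in every library, to between 0.880 and 1.36 FPKM for fibroblasts and to between 0.0679 and 0.134 FPKM for endothelium.

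HELZ2, ZNFX1, RNF213, EIF2AK2 and ADAR are known as interferon-stimulated genes, which cells transcribe in response to type I or type III interferon. PKR, the product of EIF2AK2, binds double-stranded RNA and then phosphorylates the initiation factor eIF2alpha, which lowers translation. ADAR deaminates adenosine to inosine in double-stranded RNA and so keeps the cell's own RNA from activating PKR and MDA5. HELZ2, ZNFX1 and TRANK1 belong or are related to the superfamily 1 helicases, and RNF213 is a giant ubiquitin ligase with an AAA+ ATPase core.

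ADAR is made in 2 forms that start at different methionine codons. The long p150 form, from an interferon-inducible promoter, carries a Z-nucleic acid binding domain that the constitutive p110 form lacks. The first 60 coding bases of each are shown because the isoforms differed in the data, with the start codon in capitals (GENCODE annotation, GRCh38):
ADAR p150: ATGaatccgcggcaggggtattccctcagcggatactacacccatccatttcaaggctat
ADAR p110: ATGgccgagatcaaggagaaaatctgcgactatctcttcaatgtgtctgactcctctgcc
The p110 coding sequence, 2796 bases with the stop codon, was identical to the p150 coding sequence of 3681 bases from base 886 on. It thus lacked the first 885 bases, a multiple of the codon length.

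Promoter windows of RefSeq (GRCh38.p14), from 250 bases before to 50 after a transcript's start, were at hand for 5 of the 6 genes, in 8 windows. ZNFX1 was the gene without a window. The EIF2AK2 and HELZ2 sequences are shown because these 2 windows held a match to an interferon response motif, here in capitals, while the start lies 86 bases in:
EIF2AK2 promoter, chr2:37156967-37157066, minus strand: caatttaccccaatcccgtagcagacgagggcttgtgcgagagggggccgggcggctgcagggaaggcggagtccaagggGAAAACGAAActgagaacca
HELZ2 promoter, chr20:63574226-63574325, minus strand: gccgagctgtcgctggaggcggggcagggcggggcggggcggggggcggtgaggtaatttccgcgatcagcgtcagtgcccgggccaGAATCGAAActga
The EIF2AK2 window held the core GAAANNGAAA of the interferon-stimulated response element, from 6 bases before the start to base 4 after it, a motif found on either strand in 3.57% of 34943 windows. The HELZ2 window held the shorter form GAANNGAAA, from base 2 to base 10 of the transcript, which 7.66% of windows hold. The shorter form has GAA before the 2 free bases where the longer form has AAA, so that a stretch matching one does not match the other, and the motifs were chosen after the letters had been seen. The gamma-activated site TTCNNNGAA, at 7.66% of windows, was in none of the 8. The windows of ADAR, RNF213 and TRANK1 held no match to any of these motifs. These are matches of letters, and no binding was measured.

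HELZ2, a helicase known as a coactivator of PPAR nuclear receptors, lies at chr20:62189439-62205592 (hg19). Its level was 10.7 FPKM in the control and 49.6 FPKM in Myc-TRIM40 of experiment 1, and 2.25 and 8.20 FPKM in experiment 2. FPKM is the number of fragments per kilobase of transcript scaled to the number mapped, so levels can be set beside each other between genes. Within each experiment the Myc-TRIM40 library was higher, by 4.64-fold and 3.64-fold in FPKM, whereas the 8.20 FPKM of the second Myc-TRIM40 library lay under the first control. The 30637 and 5061 reads of the Myc-TRIM40 libraries stood against 6502 and 1293 reads in the controls. The edgeR fit over both experiments gave a log2 fold change of 2.08 (SE 0.23, n = 2 per condition).

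ZNFX1, an NFX1-type zinc finger helicase that senses viral RNA at mitochondria, lies at chr20:47862439-47894756. It was at 15.9 FPKM without and 30.9 FPKM with Myc-TRIM40 in experiment 1, and at 5.83 and 12.3 FPKM in experiment 2, that is 1.94-fold and 2.11-fold higher with Myc-TRIM40. It was 1 of 2 genes here, with HELZ2, located on chromosome 20. The fitted log2 fold change was 0.94 (SE 0.22, n = 2 per condition). ZFAS1, a long noncoding RNA gene known to lie antisense to the ZNFX1 promoter, overlaps it in the tables and was at 94.1, 110, 171 and 115 FPKM in control and Myc-TRIM40 of experiments 1 and 2. Its log2 ratio of FPKM + 1 was 0.23 in experiment 1 and -0.57 in experiment 2, so it did not move with ZNFX1 in experiment 2. Whether reads were assigned by strand was not given in the sources used here, so reads of the shared stretch cannot be told apart.

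RNF213, the Moyamoya disease susceptibility gene, whose ligase coats bacteria and lipid droplets, lies at chr17:78234660-78372581. It was at 6.91 FPKM in the control and 22.7 FPKM in Myc-TRIM40 of experiment 1, against 1.89 and 4.95 FPKM in experiment 2. Its ratios were 3.29 and 2.62, and the fitted log2 fold change was 1.5 (SE 0.23, n = 2 per condition). Myc-TRIM40 of experiment 2 was again under the control of experiment 1. LOC100294362, which overlaps RNF213 in the tables, had between 19 and 30 reads in a library, where RNF213 had between 2459 and 28018.

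TRANK1, named for its tetratricopeptide and ankyrin repeats, was the lowest of the genes. At chr3:36868308-36986548 it had 0.259 and 1.46 FPKM in experiment 1 and 0.0679 and 0.208 FPKM in experiment 2, control before Myc-TRIM40. These levels rest on 172, 972, 50 and 142 reads. The FPKM ratios were 5.64 and 3.06, yet on the log2 scale of FPKM + 1, which shrinks the differences of low genes, its ratio in experiment 2 was only 0.18. The fitted log2 fold change, from reads, was 2.01 (SE 0.31, n = 2 per condition).

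EIF2AK2, which encodes PKR, lies at chr2:37332284-37384190. It was at 10.9 and 35.5 FPKM in experiment 1 and at 5.97 and 13.5 FPKM in experiment 2, control before Myc-TRIM40. It was the only gene of the group for which both Myc-TRIM40 libraries lay above both controls in FPKM, an arrangement seen for 15.2% of the 14868 genes tested. The ratios were 3.25 and 2.26, and the fitted log2 fold change was 1.37 (SE 0.24, n = 2 per condition). Among the other eIF2alpha kinases, EIF2AK1, the heme-regulated kinase, was at 64.9 and 40.5 FPKM in experiment 1 and 21.3 and 40.7 FPKM in experiment 2. EIF2AK3 (PERK), which responds to unfolded protein in the endoplasmic reticulum, was at 4.44 and 4.97 FPKM in experiment 1 and 3.07 and 4.58 FPKM in experiment 2. EIF2AK4 (GCN2), which responds to uncharged tRNA, was at 6.89 and 8.24 FPKM and at 4.62 and 7.93 FPKM. The latter 2 were thus higher with Myc-TRIM40 in both experiments, while EIF2AK1 was lower in experiment 1 and higher in experiment 2. The fitted log2 fold changes were 0.05 (SE 0.35) for EIF2AK1, 0.29 (SE 0.22) for EIF2AK3 and 0.44 (SE 0.22) for EIF2AK4, none of them called.

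ADAR, at chr1:154554534-154600456, was the highest of the genes in every library, with 48.1 and 88.6 FPKM in experiment 1 and 24.2 and 43.2 FPKM in experiment 2. The ratios were 1.84 and 1.78, the closest between experiments along with those of ZNFX1, and the fitted log2 fold change was 0.78 (SE 0.20, n = 2 per condition), the smallest of the group. Of its paralogue ADARB1, which edits mainly neuronal transcripts, the levels were 1.93, 1.63, 0.362 and 1.14 FPKM in control and Myc-TRIM40 of experiments 1 and 2.

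**Figure D1:**
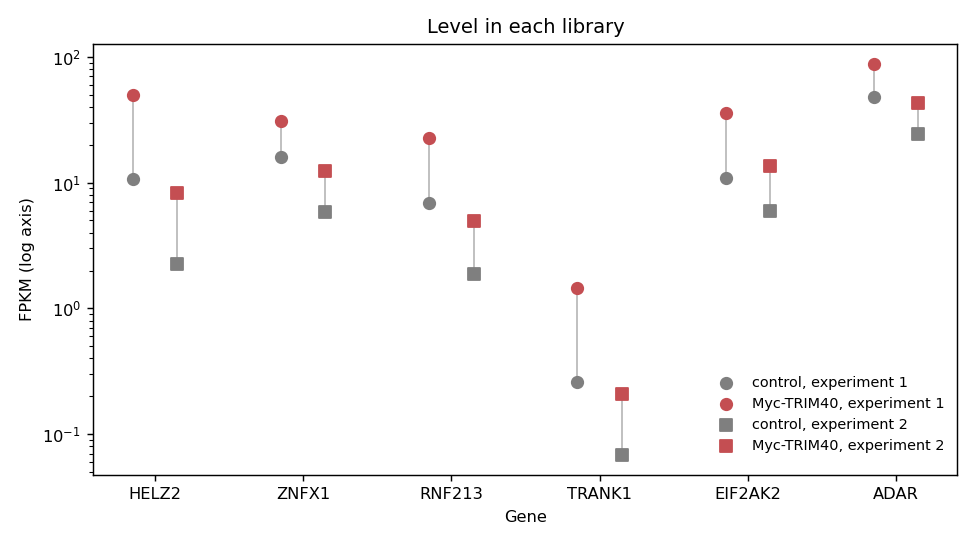
Level of each gene in FPKM, on a log axis, in the 4 libraries, with circles for experiment 1, squares for experiment 2, grey for control and red for Myc-TRIM40. Grey lines join the 2 libraries of an experiment. Within each experiment the red symbol lies above the grey one for all 6 genes, and the squares lie under the circles of the same colour.

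The plot of levels by library shows 2 features shared by the group. The Myc-TRIM40 library was above the control of its own experiment for 6 of 6 genes in both experiments. As the genes were chosen with this contrast known, nothing is read from that count. The share of all genes higher in both experiments by any amount is not given here. Both experiment 2 libraries were lower than their experiment 1 counterparts, since the control of experiment 1 exceeded that of experiment 2 by 4.76-fold for HELZ2, 3.81-fold for TRANK1, 3.66-fold for RNF213, 2.74-fold for ZNFX1, 1.99-fold for ADAR and 1.83-fold for EIF2AK2. ADAR was the highest, RNF213 the fifth and TRANK1 the lowest in all 4 libraries. Between them ZNFX1, EIF2AK2 and HELZ2 changed places from library to library, and these 3 neighbours in the order do not differ beyond the distance between the experiments. In bulk RNA, a change in the number of expressing cells and a change in RNA per cell cannot be told apart.

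The isoforms of ADAR were unequal. The 3 transcripts coding for p150 (NM_001111, NM_015840 and NM_015841) summed to 27.6 FPKM in the control and 65.4 FPKM in Myc-TRIM40 of experiment 1, and to 11.1 and 26.4 FPKM in experiment 2. The ratios were thus 2.37 and 2.39. The 2 transcripts coding for p110 (NM_001025107 and NM_001193495) summed to 20.5 and 23.2 FPKM in experiment 1 and to 13.2 and 16.8 FPKM in experiment 2, with ratios of 1.13 and 1.27. The p150 share of ADAR went from 57.4% to 73.9% in experiment 1 and from 45.6% to 61.2% in experiment 2, by 16.4 and 15.5 percentage points. Each p150 share with Myc-TRIM40 was above both control shares. In reads rather than FPKM the shares were 57.9% and 74.2% in experiment 1 and 46.0% and 61.5% in experiment 2, control before Myc-TRIM40. The p150 transcripts accounted for 93.4% of the gene's FPKM increase in experiment 1 and for 81.0% in experiment 2. With 2 libraries against 2, the exact permutation test cannot give a two-sided p under 0.333, and no test was made.

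**Figure D2:**
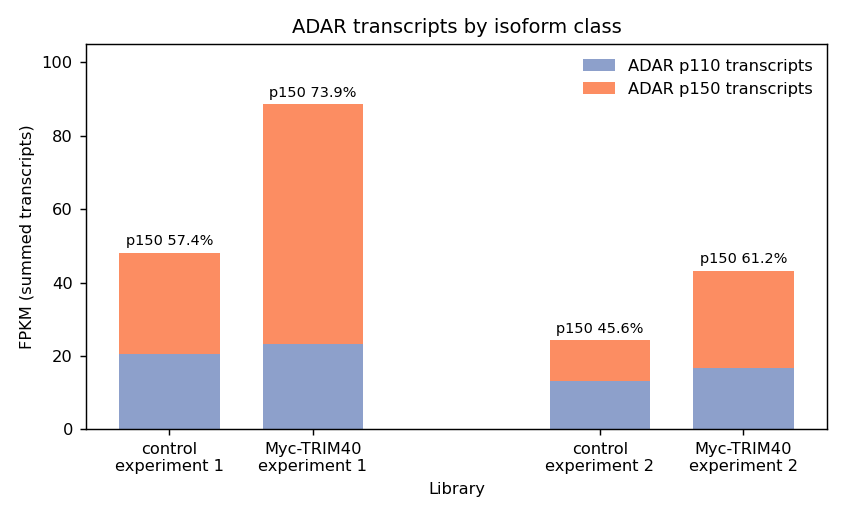
Summed FPKM of the ADAR transcripts coding for p110 (blue) and p150 (orange) in each of the 4 libraries, with the p150 share above each bar. The blue part stays between 13.2 and 23.2 FPKM, while the orange part spans 11.1 to 65.4 FPKM.

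Single transcripts were less even than their sums. The p150 transcript with the most FPKM in every library was NM_001111, at 21.4 and 48.0 FPKM in experiment 1 and 5.37 and 20.3 FPKM in experiment 2. NM_015840 and NM_015841, which differ from it by alternative splicing, were 2.80-fold and 2.55-fold higher with Myc-TRIM40 in experiment 1. In experiment 2 NM_015840 was 1.20-fold higher, while NM_015841 was lower with Myc-TRIM40, at a ratio of 0.631. Of the p110 transcripts, NM_001025107 varied little, with ratios of 1.07 and 1.13, and begins at base 154600456 of chromosome 1. NM_001193495, whose start at base 154578776 lies downstream of the p150 start at 154580724, had 13 reads and then 506 in experiment 1, and 0 and then 803 in experiment 2. Reads shared by transcripts of 1 gene were apportioned by the authors' estimator, so that the split between transcripts that differ by little sequence is uncertain.

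HELZ2 also has transcripts of unequal behaviour. The full-length NM_001037335, of 10002 bases, was at 9.44 and 46.5 FPKM in experiment 1 and at 0.690 and 6.92 FPKM in experiment 2, a ratio of 4.93 and 10.0. NM_033405, of 7507 bases, which starts further downstream, was at 1.27 and 3.17 FPKM and at 1.56 and 1.28 FPKM, a ratio of 2.50 and 0.821. The full-length transcript made up 88.1% and 93.6% of HELZ2 in experiment 1 and 30.7% and 84.4% in experiment 2. Its lowest share was thus in the control of experiment 2, in which the gene was lowest too. The start shown above with the GAATCGAAA match is that of the gene's upstream promoter window, and the window of the downstream start had no match to the 3 motifs.

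In RNF213 both transcripts were higher with Myc-TRIM40 in both experiments. NM_001256071, of 21057 bases, had ratios of 3.29 and 2.78 and made up at least 85.2% of the gene in each library, while the 5324-base NM_020954, which ends early, had ratios of 3.29 and 1.69. EIF2AK2 came mostly from NM_001135651, at 10.5, 33.1, 5.73 and 12.5 FPKM in control and Myc-TRIM40 of experiments 1 and 2. NM_002759, of the same genomic span, had 0 reads in both controls, 521 in Myc-TRIM40 of experiment 1 and 258 in that of experiment 2. NM_001135652 had 103, 104, 63 and 0 reads in the same order. ZNFX1 has a single transcript in the tables, and of the TRANK1 transcripts NM_014831 was listed at 0 in all 4 libraries.

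**Figure D3:**
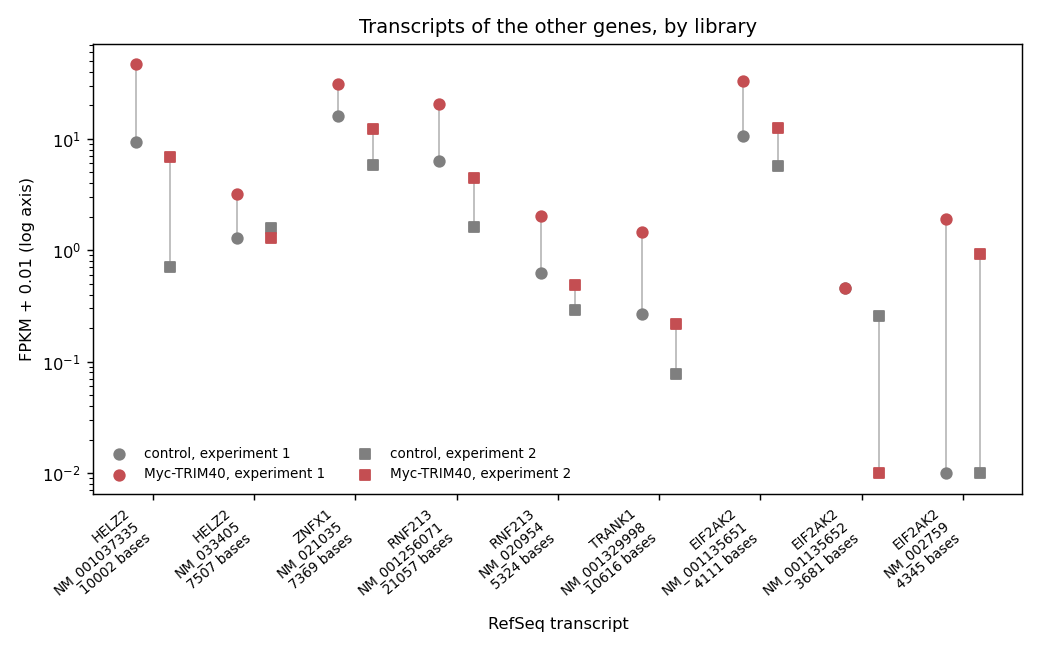
FPKM + 0.01 on a log axis of each transcript of HELZ2, ZNFX1, RNF213, TRANK1 and EIF2AK2 that has reads, with its length in bases, coloured as control (grey) and Myc-TRIM40 (red), circles for experiment 1 and squares for experiment 2. The red square lies under the grey one for HELZ2 NM_033405 and EIF2AK2 NM_001135652, and above it for the others.

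Across the 14868 genes tested, the quasi-likelihood test of edgeR, adjusted by Benjamini-Hochberg, called 0.0404% higher with Myc-TRIM40, and HELZ2 was the 1 of the 6 genes among them, while DESeq2 called 5 of the 6 and 0.303% of all genes. By fold alone, 6 of the 6 genes were at least 1.5-fold higher on FPKM + 1 in experiment 1, where 2.78% of all genes were, 5 in experiment 2, where 8.54% were, and 5 in both experiments, where 0.457% were. TRANK1 was the exception in experiment 2. Without the experiment as a block edgeR called 0 genes, with 128 higher and 25 lower where p before adjustment was under 0.05. As this contrast chose the genes, nothing is read from these counts. The fitted log2 fold changes of the 6 genes ran from 0.78 to 2.08 with a median of 1.44, where the median of all genes tested was 0.04.

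**Figure D4:**
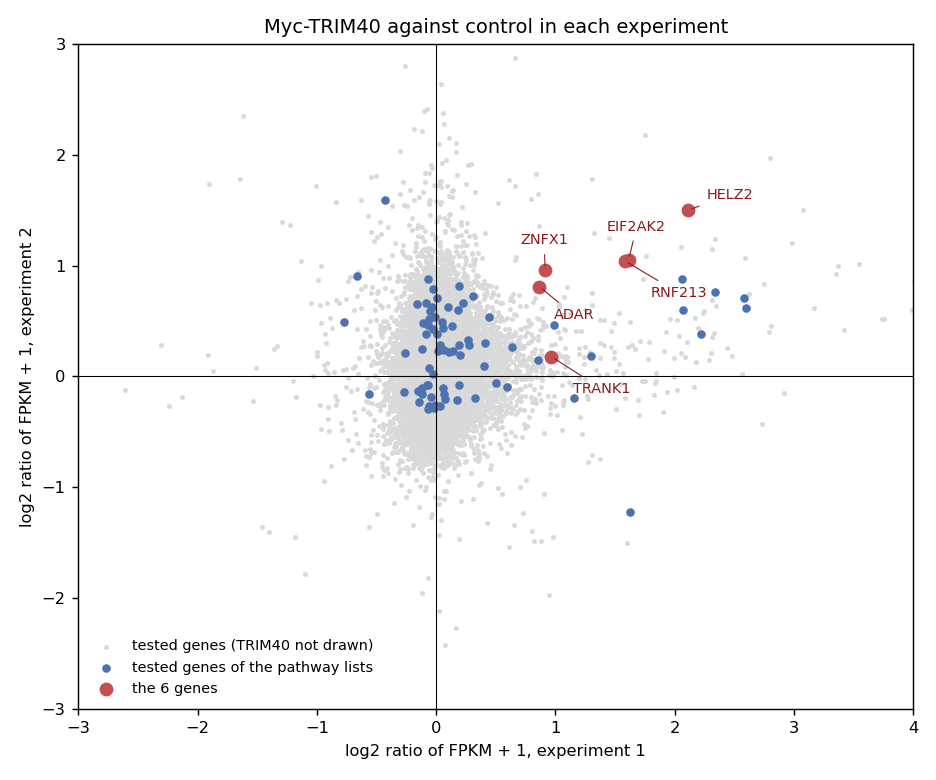
Log2 ratio of FPKM + 1, Myc-TRIM40 against control, in experiment 1 (horizontal) and experiment 2 (vertical) for tested genes (grey), tested genes of the pathway lists (blue) and the 6 genes (red, named). TRIM40 is not drawn and 12 further genes lie outside the axes. The 6 genes lie at 0.87 or more on the horizontal axis and between 0.18 and 1.5 on the vertical axis.

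The comparison of experiments shows that 4 of the genes had a smaller log2 ratio of FPKM + 1 in experiment 2, from 2.11 to 1.5 for HELZ2, from 1.58 to 1.04 for RNF213, from 0.97 to 0.18 for TRANK1 and from 1.61 to 1.05 for EIF2AK2. ZNFX1, at 0.91 and 0.96, and ADAR, at 0.87 and 0.81, had nearly the same ratio in both. The genes with the most similar pair of ratios, by root mean square difference over the 2 experiments among 11796 genes with a mean of at least 1 FPKM, were PARP14 and SAMD9 for HELZ2, at 0.24 for both. SLFN5 and DTX3L came closest to both RNF213, at 0.12 and 0.16, and EIF2AK2, at 0.10 and 0.15. For ADAR they were PIK3AP1 at 0.08 and SCD at 0.13, for ZNFX1 SNORD159 at 0.15 and PRSS1 at 0.17, and for TRANK1 MAFF at 0.04 and RND1 at 0.05. Likeness over only 2 experiments is a description, and the small values for TRANK1 go with its low FPKM. SNORD159, at 0.0367 to 3.01 FPKM, and PRSS1, at 0.41 to 2.37 FPKM, were low as well, so the added 1 weighs on their ratios.

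The genes also share long transcripts, which the choice did not use. Their most-read transcripts have between 4111 and 21057 bases, where the median of all genes tested was 2839 bases and 31.0% had at least 4000. In experiment 2 the genes with such long transcripts, 4603 in number, had a median log2 ratio of FPKM + 1 of 0.33, against -0.01 for the shorter 10265, whereas in experiment 1 the medians were 0.04 and 0.02. The control of experiment 2 was lower than that of experiment 1 by a median of -0.60 on log2(TPM + 1) for long and -0.11 for shorter transcripts. For the genes described here the same difference was -2.27 for HELZ2, -1.86 for RNF213, -1.63 for ZNFX1, -1.24 for ADAR, -1.07 for EIF2AK2 and -0.48 for TRANK1. As TRANK1 was at 0.259 and 0.0679 FPKM in the controls, the added 1 understates its difference, which was 3.81-fold in FPKM. Transcript length thus moved with the ratios of experiment 2, and its part in them was not tested. Less the median of the long genes, the experiment 2 ratios stayed above 0 for all but TRANK1, and were 0.63 for ZNFX1 and 0.48 for ADAR. That of TRANK1 was -0.16, a value understated by the added 1 at levels of 0.0679 and 0.208 FPKM. Its fitted log2 fold change, from reads over both experiments, was 1.8 after the fitted median of the long genes was taken off.

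The neighbours on the chromosome are described next, although so few genes cannot show whether a whole region moved. Of the 12 nearest genes with a mean of at least 1 FPKM, 1 on each side of each gene, 0 were at least 1.5-fold higher in both experiments. As only 0.457% of all genes tested were, nothing is read from that count. Their log2 ratios of FPKM + 1 ran from -0.24 to 0.38 in experiment 1 and from -1.15 to 0.46 in experiment 2. Some were poor neighbours, with PDCD6IP 2957109 bases from TRANK1, PMVK 296752 bases from ADAR, and SNORD12C beside ZNFX1 at 7 to 9 reads in a library. The 2 that passed 1.5-fold, in experiment 2 only, were lower with Myc-TRIM40. These were CEBPZOS beside EIF2AK2, at -1.15, and PMVK on the far side of ADAR, at -0.69. DDX27 beside ZNFX1 was at 0.08 and 0.19, and GMEB2 beside HELZ2 at -0.14 and 0.28.

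Genes that act with the 6 were followed in 5 lists of 85 genes, 75 of them tested. EdgeR called 0 of the 75 in either direction after adjustment, as did limma, upper-quartile factors, no filter and the fit without the experiment, while before adjustment 9 had a p under 0.05, each of them higher, as was the case for 3.41% of all genes tested. DESeq2 called 5 of the 75 higher and 0 lower, and the lists were chosen with results of these libraries known. These 5 were also the ones at least 1.5-fold higher in both experiments, and 4 of them are described here. DDX58, the RNA sensor RIG-I, was at 2.84 and 22.2 FPKM in experiment 1 and at 2.30 and 4.06 FPKM in experiment 2. IFIH1, the sensor MDA5, went from 3.62 to 26.7 and from 3.27 to 5.95 FPKM, and DHX58, the related LGP2, from 2.33 to 13 and from 1.21 to 2.35 FPKM. IRF9, a transcription factor of the interferon response, went from 9.17 to 41.4 and from 8.18 to 15.9 FPKM. The control of experiment 1 stood at 1.11-fold (IFIH1), 1.12-fold (IRF9), 1.24-fold (DDX58) and 1.93-fold (DHX58) that of experiment 2 for these 4, against between 1.83-fold and 4.76-fold for the 6 genes.

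By list, the medians of the fitted log2 fold changes were 0.34 for 17 genes of interferon signalling, 0.26 for 10 helicases and NFX1-type zinc finger genes, 0.20 for 16 genes of double-stranded RNA binding, editing and sensing, 0.03 for 10 partners of HELZ2 and RNF213 and -0.08 for 22 genes of the PKR and eIF2 pathway. Before adjustment, p was under 0.05 for 4, 1, 4, 0 and 0 of them, each higher, against the same 3.41% of all genes. In the PKR and eIF2 pathway the extremes were PPP1R15A, a phosphatase subunit that reverses eIF2alpha phosphorylation, at 0.69 (SE 0.31), and TARBP2, a PKR inhibitor, at -0.26 (SE 0.21). DDIT3 (CHOP), a target of the pathway, had log2 ratios of opposite sign, at 1.62 in experiment 1 and -1.23 in experiment 2. Among the sensors and binders the extremes were DDX58 at 1.82 and ILF2 at -0.44, among the partners PPARA at 0.47 and PPARG at -0.28, and in interferon signalling IRF9 at 1.49 and IRF3 at -0.26. The lowest of the helicases and zinc finger genes was NFXL1 at -0.21. The helicase list and the sensor list had medians of 0.03 and -0.05 in experiment 1 and 0.48 and 0.50 in experiment 2 on log2(FPKM + 1), so that the higher medians of these lists came from experiment 2. Most tested genes of both lists have most-read transcripts of at least 4000 bases. All tested genes with such transcripts had a fitted median of 0.22, with 0.04 in experiment 1 and 0.33 in experiment 2. The part of transcript length in the list medians was not tested.

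**Figure D5:**
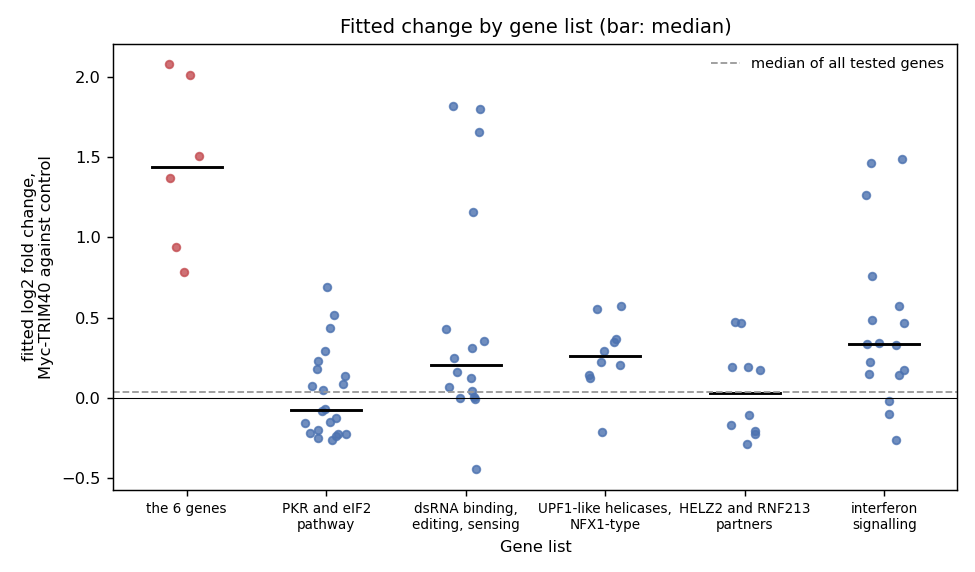
Fitted log2 fold change from edgeR, Myc-TRIM40 against control over both experiments, for the 6 genes (red) and the tested genes of the 5 pathway lists (blue), with 1 point per gene, a bar at each list's median and a dashed line at the median of all tested genes. The 6 genes lie between 0.78 and 2.08, the bars of the lists between -0.08 and 0.34.

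Interferon transcripts themselves were scarce. IFNL1, a type III interferon, had 8 and 176 reads in control and Myc-TRIM40 of experiment 1 and 5 in each library of experiment 2. IFNB1 had 32 reads in Myc-TRIM40 of experiment 1 and 0 in the other libraries. IFNL2 and IFNL3, near-identical copies between which reads can be split wrongly, had 65 and 53 reads in the same library and at most 5 elsewhere, and IFNG had 0 reads throughout. ZBP1, which like p150 binds Z-form RNA, had 0 and 97 reads in experiment 1 and 0 and 5 in experiment 2. These genes did not pass the filter on low counts and were not tested.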

How the data were processed

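RNA was measured by RNA-seq in 4 HT-29 libraries (2 experiments, control and Myc-TRIM40 in each), made with a stranded mRNA kit. The authors deposited an expected count of reads per RefSeq transcript, estimated by their pipeline and given as whole numbers without normalization, and FPKM, which is scaled by transcript length and library total. For experiment 2 the authors also deposited TPM, in which FPKM is brought to an equal total per library, and TPM of experiment 1 was computed here from FPKM. The other deposited values used were transcript lengths in bases. The submitters' processing notes name HISAT2 2.1.0, StringTie 1.3.4d and hg19, and the counting of shared or antisense reads is not given in the sources used here. As estimated counts are apportioned among transcripts, isoform values depend on that step.

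Transcripts were summed per gene. Genes were tested with edgeR 4.0.16 (glmQLFit and glmQLFTest, R 4.3.3) on the 14868 of 27685 genes kept by filterByExpr, with TMM factors, the experiment as a block and Benjamini-Hochberg adjustment at 0.05. The experiment number pairs the libraries, as given by the sample labels and by the tables, in which both conditions of an experiment stand together, and the deviations of same-numbered libraries had a correlation of 0.45. The fit left 1 residual degree of freedom, with a median prior of 7.44 degrees of freedom and a common dispersion of 0.0484. The study's methods call the experiments independent, and the sources used here do not say what was repeated between them, so the p-values measure the spread between these libraries. Totals were between 60954602 and 67424698 reads, and 2 experiments limit the precision of each change. Ratios within an experiment used log2(FPKM + 1), on which changes of low genes are understated. The alternatives were no block, DESeq2 1.42.0, limma 3.58.1 on log2(FPKM + 1), upper-quartile factors, no filter, a pseudocount of 0.1, TPM, median-centred ratios, the most-read transcript and each experiment left out. Centring on genes with transcripts of at least 4000 bases was chosen after seeing the data. The edgeR step was checked on simulated counts with a fixed dispersion. The simulated experiments did not differ beyond library size, so the check does not cover differences between experiments or by transcript length. Python 3.11.15, numpy 2.4.6, pandas 2.3.3 and matplotlib 3.10.9 were used for the rest.

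The 6 genes and all gene lists were chosen with earlier results of these data known. Named besides them were overlapping genes, the nearest gene on each side with a mean of at least 1 FPKM, the 2 genes most like each in both experiments, and of each list the genes called, those changed 1.5-fold the same way in both experiments and the extremes of the fitted change. DDIT3, ADARB1, ZBP1, the other eIF2alpha kinases and the interferon genes were named after their values were seen. Some results that these rules cover are left out of the text.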

Additional observations from a re-analysis of the deposited data

How the results depend on the processing

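With the experiment as a block, edgeR called 6 genes higher and 3 lower with Myc-TRIM40 (507 and 168 at an unadjusted p under 0.05). Without the replicate block it called 0 and 0 (128 and 25 unadjusted), without a filter on low counts 0 and 0 (343 and 104 unadjusted), limma on log2(FPKM + 1) 3 and 0 (587 and 134 unadjusted) and DESeq2 45 and 9. Upper-quartile factors kept both counts within 1.5 times. Leaving out an experiment left 1 library per condition, so that no count could be given, and each remaining log2 change of the 6 genes kept its direction.

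Of the fitted log2 fold changes of the 6 genes under the alternatives, 42 moved by less than the spread between the gene's 2 experiments. Spread here is the standard deviation of the values of the 2 experiments, not the distance between them. Another 6 moved by more, and every value was above 0. These 6 were, with limma, 1.81 for HELZ2 and 0.57 for TRANK1, with DESeq2, 0.91 for ZNFX1, and less the median of genes with long transcripts, 1.86 for HELZ2, 0.72 for ZNFX1 and 0.57 for ADAR. Leaving out an experiment leaves the ratio of the other, so those values were bound to stay within that spread and nothing is read from them. The limit was also loosest where the experiments differed most, as for TRANK1 and EIF2AK2. For TRANK1 the lower limma value goes with the added pseudocount, as its ratio in experiment 2 went from 0.18 with 1 added to 0.87 with 0.1 added. Of the ratios within an experiment, 44 values moved by less than that spread, 15 by more and 1 turned, that of TRANK1 in experiment 2 less the median of long genes, at -0.16. The p150 shares of ADAR in reads stayed within that spread of those in FPKM in all 4 libraries. With a single degree of freedom left, a call for a single gene depends mainly on the shared prior. The cause of the differences between tools was not tested.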
